A study of Mus musculus with 6 samples.

Results

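The genes described here are the 3 receptors of transforming growth factor beta (TGF-beta) Tgfbr1, Tgfbr2 and Tgfbr3, the Smad genes Smad2, Smad3, Smad4 and Smad7, and the Smad corepressor genes Ski and Skil. They were taken by name, as every probe set of the array whose only gene symbol is 1 of these 9 genes. They are 9 of the 18194 genes named by such a probe set and hold 22 of its 45101 probe sets, each a group of short probes that measures 1 transcript or a few related ones. On a log2 scale, 19 of them read above 4 (an intensity of 16) on at least 3 of the 6 arrays and were tested, and the other 3 (1 each of Tgfbr1, Tgfbr2 and Smad3) were too dim.

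The cells were CD4+YFP+ T cells sorted from mouse lymph nodes, and 3 arrays each were run for Dicer wt/lox (Het) and Dicer lox/lox (KO) mice. Mice of both groups carried FoxP3-GFP-hCre, in which Cre is produced where Foxp3 is active, and ROSA26R-YFP, a reporter that stays on once Cre has acted. The sorted cells had therefore expressed Foxp3, the factor that defines regulatory T cells, at some time, and in Het cells too 1 Dicer copy was open to Cre. Age and strain are not given in the labels used here, and the letters A, B and C of the arrays are not said to mark separate animals. The p-values thus reflect the spread among these samples alone, and that spread may be technical.

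TGF-beta binds the type II receptor, encoded by Tgfbr2, which then activates the type I receptor, encoded by Tgfbr1. The co-receptor betaglycan, encoded by Tgfbr3, holds ligand for this pair. The active type I receptor phosphorylates the proteins of Smad2 and Smad3, which enter the nucleus with the common partner encoded by Smad4. Smad7 encodes an inhibitory Smad that blocks the receptors, and Ski and Skil encode nuclear corepressors that bind Smad complexes. In T cells this pathway is known for restraining effector functions and for inducing Foxp3 in peripheral cells.

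Dicer cuts microRNA precursors, and the KO cells are designed to lose mature microRNAs. Several microRNAs are reported in other systems to bind transcripts of the genes described here. They are the miR-17 family for Tgfbr2, let-7 for Tgfbr1, miR-146a for Smad4 and miR-21 for Smad7. Their mature sequences are shown (RefSeq, GRCm38.p6, 5′ to 3′), with the seed, bases 2 to 8, in capitals, because loss of such molecules is what separates the groups by design. No microRNA level and no binding site was examined.
mmu-miR-17-5p: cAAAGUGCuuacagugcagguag
mmu-miR-20a-5p: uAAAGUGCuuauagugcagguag
mmu-miR-93-5p: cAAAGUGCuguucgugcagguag
mmu-miR-106b-5p: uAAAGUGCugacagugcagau
mmu-let-7a-5p: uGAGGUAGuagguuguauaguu
mmu-miR-146a-5p: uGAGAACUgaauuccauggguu
mmu-miR-21a-5p: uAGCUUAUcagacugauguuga
The first 4 of these 7 share the seed AAAGUGC, and each of the other 3 has a seed of its own.

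No receptor or Smad gene passed the comparison of KO with Het, which asks how transcripts differ when Dicer is deleted. Of the 19 tested probe sets 0 were called at an adjusted p under 0.05 (limma, Benjamini-Hochberg over 29507 probe sets; smallest adjusted p = 0.0602), against 1.78% of all probe sets tested. At an unadjusted p under 0.05, 3 were higher in KO and 0 lower. These 15.8% of the tested members compare with 19.1% of all probe sets. The median log2 difference, KO minus Het, was 0.01 for the 19 and -0.03 for all probe sets tested. Every KO array lay above every Het array for 4 of the 19 (21.1%), against 11.3% of all probe sets, and below every Het array for 2 (10.5%), against 14.9%. Probe sets of 1 gene read transcripts of that gene, though not always the same ones, so the 19 are not independent. In these bulk samples fewer cells of a type and less RNA per cell cannot be told apart.

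**Figure D1:**
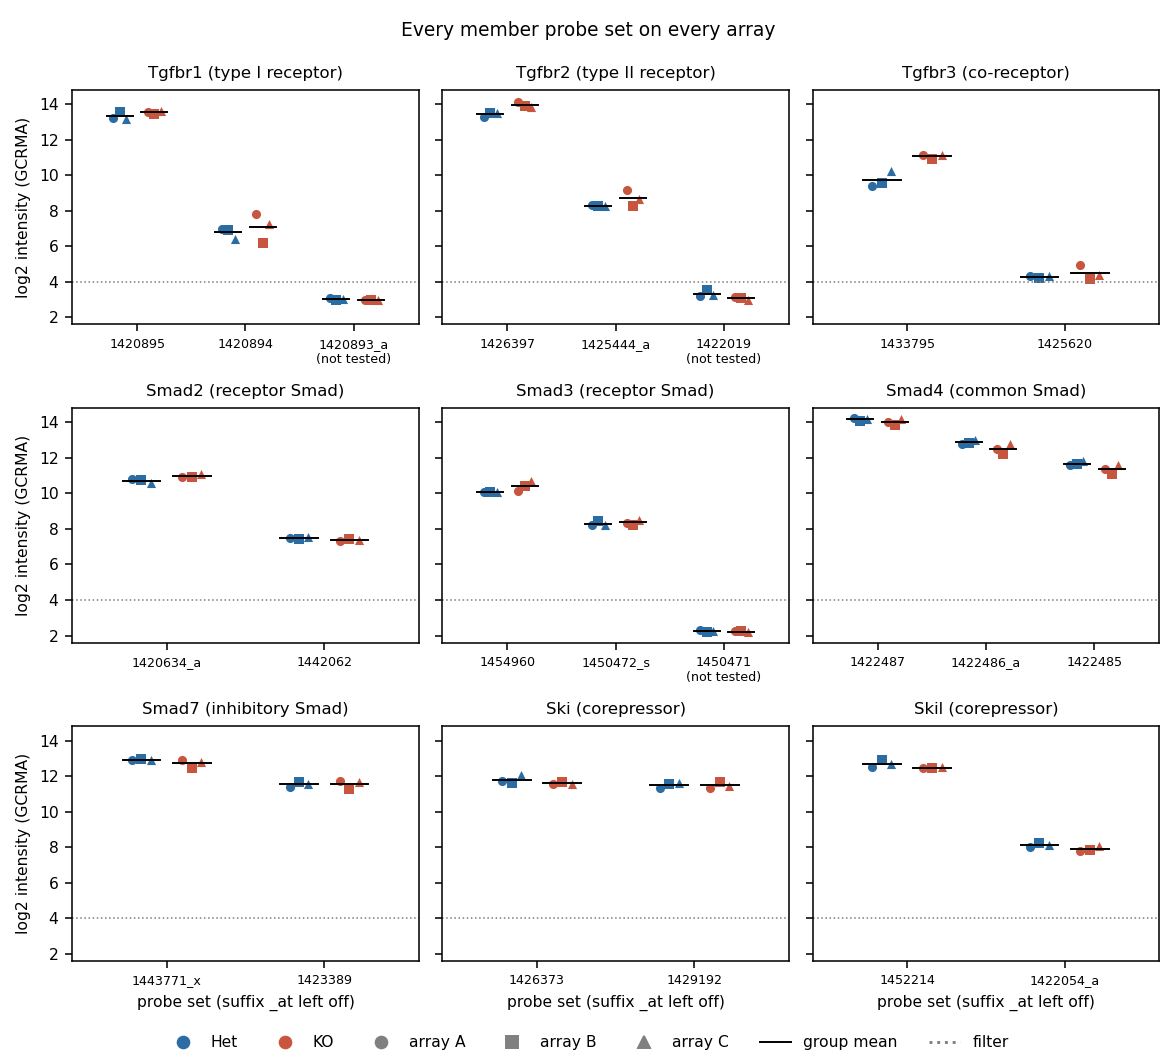
Log2 intensity (vertical axis) of all 22 probe sets of the 9 genes on each of the 3 Het and 3 KO arrays, with a black line at each group mean and a dotted line at the filter of 4. The brighter Tgfbr3 probe set shows the widest gap between groups, and the 3 probe sets marked as not tested lie below the filter on all 6 arrays.

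The largest difference was in Tgfbr3, the gene of the co-receptor betaglycan. Its brighter probe set (1433795_at) read intensities of 669, 769 and 1222 on Het A, B and C and 2243, 1964 and 2239 on KO A, B and C. All KO arrays lay above all Het arrays, and Het C stood nearer to the KO arrays than the other Het arrays did. The KO over Het ratio was 2.50, or 1.32 ± 0.24 in log2 units (SE; 95% interval 0.74 to 1.91), which did not pass (limma, adjusted p = 0.0602). Among all tested probe sets 97.3% had a smaller absolute difference. The dimmer Tgfbr3 probe set (1425620_at), at 18.9 to 20.1 in Het and 17.9 to 30.7 in KO, lay just above the filter and gave log2 0.20 ± 0.21 (adjusted p = 0.654). Only KO A was clearly higher there, and the groups overlapped.

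Testing only brighter probe sets, those over log2 6 on at least 3 arrays, brought the brighter Tgfbr3 probe set to an adjusted p of 0.04775 with the same difference. That setting tests 22400 probe sets in place of 29507. Leaving out 1 array in turn gave log2 differences from 1.15 to 1.58 for it, with adjusted p from 0.0595 to 0.177.

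Tgfbr2, the gene of the type II receptor that binds ligand, had the next largest difference. Its brightest probe set (1426397_at) read 10144, 11768 and 11456 on Het A, B and C and 17627, 15453 and 14814 on the KO arrays in the same order. The groups did not overlap, and the lowest KO array was above the highest Het array. Het averaged 11123 ± 862 (SD, n = 3) and KO 15965 ± 1475, a ratio of 1.43. In log2 units this is 0.52 ± 0.11 (SE; 95% interval 0.26 to 0.79), which did not pass (limma, adjusted p = 0.0785).

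A dimmer Tgfbr2 probe set (1425444_a_at) read 320, 313 and 303 (Het) against 572, 310 and 405 (KO). KO A and KO C were above the Het arrays there, and KO B lay within them. It gave log2 0.41 ± 0.23 (adjusted p = 0.396). The last Tgfbr2 probe set (1422019_at) stayed between 7.93 and 11.5 on all 6 arrays, below the filter, so it gives no usable level.

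Tgfbr1 encodes the type I receptor, the kinase that acts on Smad proteins. Its brightest probe set (1420895_at) read 9449, 12337 and 9115 (Het) against 12186, 11025 and 12651 (KO). Het B lay among the KO arrays, and the other Het arrays lay below them. On the log2 scale KO minus Het was 0.23 ± 0.14 (SE; 95% interval -0.13 to 0.58; limma, adjusted p = 0.458). This interval holds the value found for Tgfbr2, so the data do not show that Tgfbr1 and Tgfbr2 moved differently. The interval lies below that of Tgfbr3, and no difference between receptor genes was tested. The dimmer Tgfbr1 probe set (1420894_at) ranged from 86.0 to 127 in Het and from 72.6 to 228 in KO. It gave log2 0.31 ± 0.44, the widest error of the tested members. The remaining Tgfbr1 probe set (1420893_a_at) read 7.81 to 8.36 on all arrays and was not tested.

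**Figure D2:**
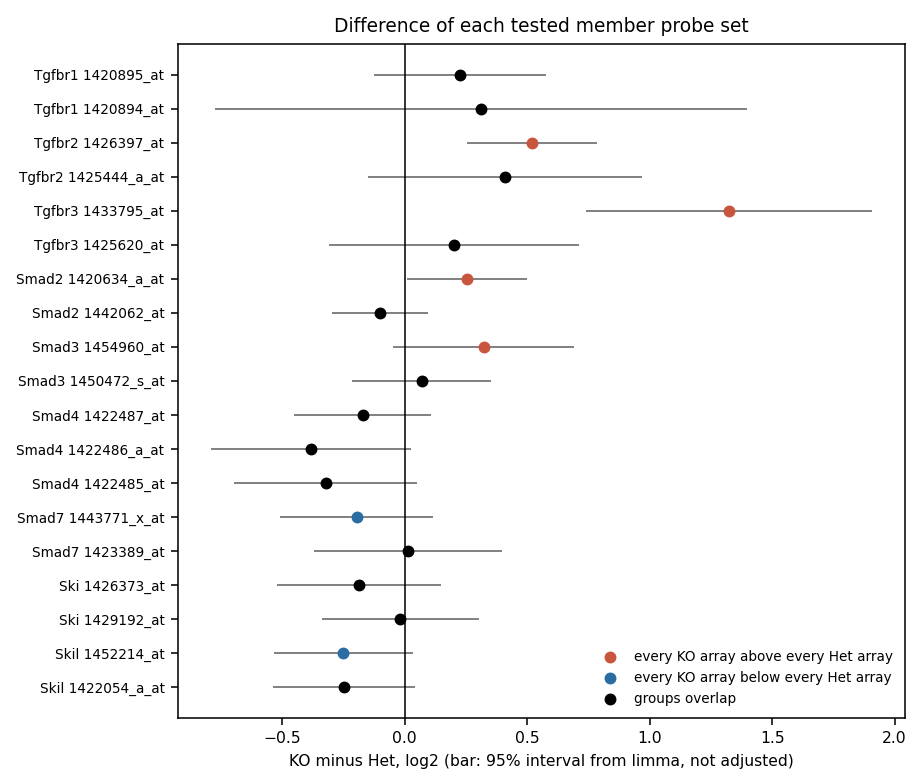
KO minus Het difference on the log2 scale (horizontal axis) of the 19 tested probe sets, with the 95% interval from limma before any adjustment. Colour shows whether the arrays of both groups overlap, and 3 intervals, of Tgfbr3, Tgfbr2 and Smad2, do not reach 0.

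Smad2 and Smad3 encode the receptor-activated Smads. The brighter Smad2 probe set (1420634_a_at) read 1830, 1710 and 1547 (Het) against 1923, 1981 and 2160 (KO). Every KO array was above every Het array, by a small margin between Het A and KO A. KO minus Het in log2 was 0.26 ± 0.10 (SE; 95% interval 0.01 to 0.50), with adjusted p = 0.244 by limma. The dimmer Smad2 probe set (1442062_at), at 173 to 190 in Het and 162 to 176 in KO, had the opposite sign, at log2 -0.10 ± 0.08 (adjusted p = 0.551). The 2 probe sets therefore give no single direction for Smad2.

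For Smad3 the brightest probe set (1454960_at) read 1102, 1101 and 1065 (Het) against 1131, 1352 and 1655 (KO). The KO arrays spread more widely, and KO A was only just above the Het arrays. The difference in log2, 0.32 ± 0.15 (SE; 95% interval -0.05 to 0.69), did not pass (limma, adjusted p = 0.317). Without KO C it was 0.18. Another Smad3 probe set (1450472_s_at) read 300 to 346 in Het and 299 to 369 in KO, a log2 difference of 0.07 ± 0.11. The ending _s marks a probe set whose probes can match transcripts of several genes. The last (1450471_at) read 4.61 to 4.92 on all 6 arrays and was not tested.

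Smad4 encodes the partner that Smad2 and Smad3 proteins share. All 3 of its probe sets had negative differences, and in each of them KO C lay within the range of the Het arrays, so the groups overlapped. The brightest (1422487_at) read 19190, 17336 and 19047 (Het) against 16495, 14577 and 18472 (KO), or log2 -0.17 ± 0.11 (SE; limma, adjusted p = 0.480). The next (1422486_a_at) read 7072, 7222 and 8396 (Het) against 5712, 4800 and 7078 (KO) (log2 -0.38 ± 0.16, 95% interval -0.79 to 0.03, adjusted p = 0.289). KO B was the lowest array on all 3. The dimmest of these (1422485_at) gave log2 -0.32 ± 0.15 (adjusted p = 0.322), from 3078 to 3569 in Het and 2184 to 3114 in KO. Leaving out KO B brought the 3 differences to -0.08, -0.25 and -0.19.

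Smad7, whose protein blocks the receptors and which TGF-beta itself induces, gave small differences. The brighter probe set (1443771_x_at) read 7584, 7947 and 7726 (Het) against 7564, 5692 and 7195 (KO). KO A was only just below the lowest Het array, while KO B was clearly lower. On the log2 scale KO minus Het was -0.20 ± 0.13 (SE; limma, adjusted p = 0.469), or -0.07 without KO B. The ending _x marks probes that can also match other sequences. The other Smad7 probe set (1423389_at) read 2675, 3230 and 3008 (Het) against 3329, 2437 and 3293 (KO), a log2 difference of 0.01 ± 0.16 (95% interval -0.37 to 0.40). Its sign changed under quantile normalization (-0.0264).

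The corepressor genes Ski and Skil had negative differences on all 4 probe sets, but that of the dimmer Ski probe set changed sign after median centring (0.0015) and without Het B (0.0211), Het C (0.0279) or KO A (0.0638). Skil, which encodes SnoN and is another gene that TGF-beta signals induce, read 5836, 7589 and 6665 (Het) against 5576, 5502 and 5728 (KO) on its brighter probe set (1452214_at). The KO arrays lay close together and below all Het arrays. On the log2 scale KO minus Het was -0.25 ± 0.11 (SE; 95% interval -0.53 to 0.03; limma, adjusted p = 0.312). The dimmer Skil probe set (1422054_a_at) gave nearly the same value, -0.25 ± 0.12, from 259 to 305 in Het and 219 to 268 in KO. For Ski the brighter probe set (1426373_at) read 3079 to 4193 in Het and 2984 to 3270 in KO, a log2 difference of -0.19 ± 0.13 (adjusted p = 0.521). Het C was the high array there, and without it the difference was -0.06. The other Ski probe set (1429192_at) gave -0.02 ± 0.13, from 2574 to 3075 in Het and 2552 to 3262 in KO.

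By brightest probe set, 5 of the 9 genes were positive (55.6% against 43.4% of all genes tested) and 4 negative. The positive ones were the 3 receptors, Smad2 and Smad3, and the negative ones were Smad4, Smad7, Ski and Skil. For Smad2 and Smad7 the other probe set had the opposite sign. Only the Tgfbr3 difference reached a log2 of 1, and 16 of the 19 tested probe sets stayed under 0.4 in absolute value, a ratio of 1.32. Leaving out any 1 array changed the sign of 0 of the 9 brightest probe sets, as the plot of left-out arrays shows. Of the 19 intervals 16 include 0.

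**Figure D3:**
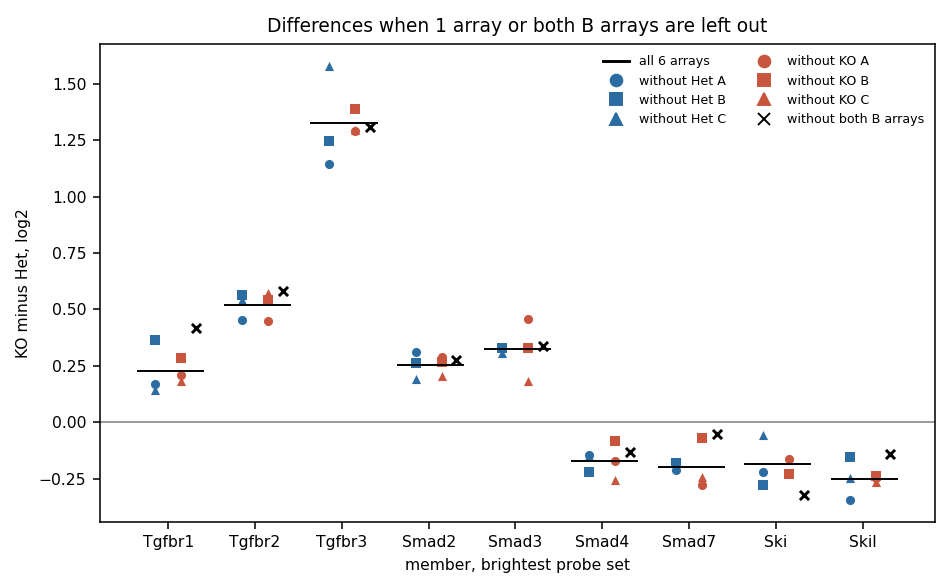
KO minus Het log2 difference (vertical axis) of the brightest probe set of each of the 9 genes with all 6 arrays (black line), without each single array (coloured symbols) and without both B arrays (cross). Tgfbr3 spans 1.15 to 1.58 without single arrays and Tgfbr2 0.45 to 0.57, and all 9 genes keep their sign.

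Other genes whose levels ran most closely beside each member were found by the root mean square difference of log2 values over the 6 arrays, each gene first centred on its own mean. For Tgfbr2 this was Tspyl4 (0.05, log2 difference 0.53), and for Tgfbr3 it was Ccrl2, a chemokine receptor-like gene (0.14, log2 difference 1.23). Tgfbr1 ran beside Zfp292 (0.06), Smad2 beside Ifit2, an interferon-induced gene (0.04), and Smad3 beside Pik3cd, a catalytic subunit of phosphoinositide 3-kinase (0.04). Smad4 ran beside Ufm1, Smad7 beside Top1, Ski beside Csnk1d and Skil beside Stag2, at 0.02 to 0.03. None of these 9 partners was itself called (limma; smallest adjusted p = 0.0622). They were picked for likeness to members that were not called, over the same 6 arrays, so this follows largely from the choice.

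The rest of the pathway was read from 7 lists of known genes, with the brightest tested probe set standing for each gene. Of 73 measured genes outside the 9, Smurf2, Runx3 and Cdkn1a rose, Id3 fell and 69 did not pass, so 5.48% were called against 2.33% of 13280 genes. Runx3 and Cdkn1a were already known to be called when the lists were written, so this share is no independent evidence. Each of the 4 calls was lost when any 1 array was left out. Most calls of the whole series were lost as well, with 525 probe sets called on all arrays and 0 to 176 without single arrays. This loss is therefore not particular to the 4 genes. The median log2 difference was 0.15 for the 73 genes and -0.03 for all genes tested. Of all genes tested 22.3% had an unadjusted p under 0.05 and 43.4% a positive difference, the shares against which the counts of each list stand.

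Smurf2, a ubiquitin ligase that Smad7 protein brings to the receptors for degradation, was the call closest to the receptors. Its brightest probe set (1454894_at) read 5000, 4752 and 6086 (Het) against 12515, 10962 and 15201 (KO). Every KO array was well above every Het array. The ratio was 2.43, or log2 1.28 ± 0.16 (SE; limma, adjusted p = 0.0309), and its other probe sets gave 1.29 and 1.24 (adjusted p = 0.0676 and 0.185). With 1 array left out the adjusted p was 0.0642 (without KO B) to 0.127 (without Het A), at differences from 1.16 to 1.39. It was the 1 of 16 genes that restrain Smad signals to pass, and 15 did not. In that list 3 genes were higher and 2 lower in KO at an unadjusted p under 0.05 by limma (31.2% against 22.3% of all genes). The median of that list was 0.17. Pmepa1 and Ldlrad4 are among these genes and are counted again among the genes that TGF-beta is reported to raise. The shares of the 2 lists are therefore not separate observations.

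Among 14 measured genes that promote Smad signals, Runx3, a transcription factor that works with Smads, rose from 1136 ± 132 to 2685 ± 255 (SD, n = 3; log2 1.24 ± 0.12, SE; limma, adjusted p = 0.0232) and 13 did not pass. Its dimmer probe set gave log2 0.31 (adjusted p = 0.297). Without single arrays its adjusted p was 0.0507 to 0.102. Of the genes that promote Smad signals 2 were higher and 1 lower in KO at an unadjusted p under 0.05 by limma (21.4% against 22.3% of all genes). The median of that list was -0.003, and the coactivator gene Ep300 gave log2 -0.10.

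No gene of the 7 measured ligands and activators passed (0 by limma; unadjusted p under 0.05 for 3 with higher and 1 with lower KO values, 57.1% against 22.3% of all genes). The list held 15 genes. Lrrc32 had no probe set with that single symbol, and Tgfb2, Tgfb3, Ltbp1, Ltbp2, Itgb6, Thbs1 and Dcn were too dim to be tested. Itgb8, an integrin chain with which T cells release active TGF-beta from its latent form, read 2845, 2990 and 2702 (Het) against 1464, 710 and 739 (KO). All KO arrays were far below the Het arrays, with KO A the highest of them. On the log2 scale KO minus Het was -1.63 ± 0.29 (SE; adjusted p = 0.0607), and without KO A it was -1.97 (adjusted p = 0.0285), past the threshold, as it also was under the stricter filter and with array weights (adjusted p = 0.0478 in both). Its partner chain Itgav had a mean of 4516 ± 380 in Het against 7162 ± 771 in KO (SD, n = 3), log2 0.66 apart with adjusted p = 0.0597, and passed with array weights (adjusted p = 0.0358). On this gene 3 other Itgav probe sets that were tested gave log2 0.96, 0.26 and -0.19. The ligand gene Tgfb1 gave log2 0.02 ± 0.18.

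Other receptors of the superfamily gave 0 calls among 10 measured genes by limma, with 1 higher and 1 lower KO value at unadjusted p under 0.05 (20.0% against 22.3% of all genes). Acvr1c, an activin type I receptor, had a mean of 86.5 ± 17.6 in Het against 206 ± 90.0 in KO (SD, n = 3), log2 1.18 apart (adjusted p = 0.153), and its other probe sets gave 0.49 and 0.02. Bmpr2, the type II receptor of bone morphogenetic proteins, gave log2 -0.26 (adjusted p = 0.214) on its brightest probe set. A dimmer Bmpr2 probe set (1419616_at) fell from 158, 141 and 237 in Het to 63.9, 60.7 and 69.4 in KO (log2 -1.43, adjusted p = 0.0424), and a further one gave -0.03. That call was lost without any 1 array (adjusted p from 0.0761 without Het C to 0.134 without Het A), with no filter (0.0589) and under quantile normalization (0.0513). The other measured Smads, Smad1 and Smad5, gave log2 -0.05 and 0.17 (adjusted p = 0.850 and 0.573), with 0 of 2 at an unadjusted p under 0.05.

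The kinase branch outside the Smads had 0 of 13 genes called by limma, and 3 higher and 0 lower ones with unadjusted p under 0.05 (23.1% against 22.3% of all genes). Traf6, a ubiquitin ligase that links the receptors to the kinase TAK1, gave log2 0.69 (adjusted p = 0.0942) on its brightest probe set and 0.39 and 0.12 on its other tested ones, and Map2k4, a kinase kinase of the JNK pathway, 0.38 and 0.13 (adjusted p = 0.206 and 0.884). The median was 0.16, with 10 of 13 positive (76.9% against 43.4% of all genes).

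Genes that TGF-beta is reported to raise showed both directions. Of 14 measured members Cdkn1a, which encodes the cyclin-dependent kinase inhibitor p21, rose (log2 2.09 ± 0.28, SE; limma, adjusted p = 0.0369), Id3, an inhibitor of E protein factors, fell (-2.13 ± 0.32, adjusted p = 0.0453) and 12 did not pass. Id3 read 5960, 3561 and 6766 (Het) against 1667, 960 and 1073 (KO). All KO arrays were far below all Het arrays. Without single arrays the adjusted p of Cdkn1a was 0.0760 to 0.119 and that of Id3 0.0670 to 0.153. Itgae, the gene of the integrin CD103, had a mean of 10671 ± 3323 in Het against 16082 ± 4430 in KO (SD, n = 3), log2 0.60 apart (adjusted p = 0.336). Its dimmer probe set (1449216_at) read 3037, 4956 and 3618 (Het) against 8587, 5349 and 5370 (KO), log2 0.73 apart (limma, adjusted p = 0.2245). With an unadjusted p under 0.05 by limma, 5 genes of this list were higher and 3 lower in KO (57.1% against 22.3% of all genes). The median of this list was 0.42. Smad7 and Skil, which TGF-beta also induces, were kept with the members, so this median does not cover them. Their brightest probe sets gave log2 -0.20 and -0.25.

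**Figure D4:**
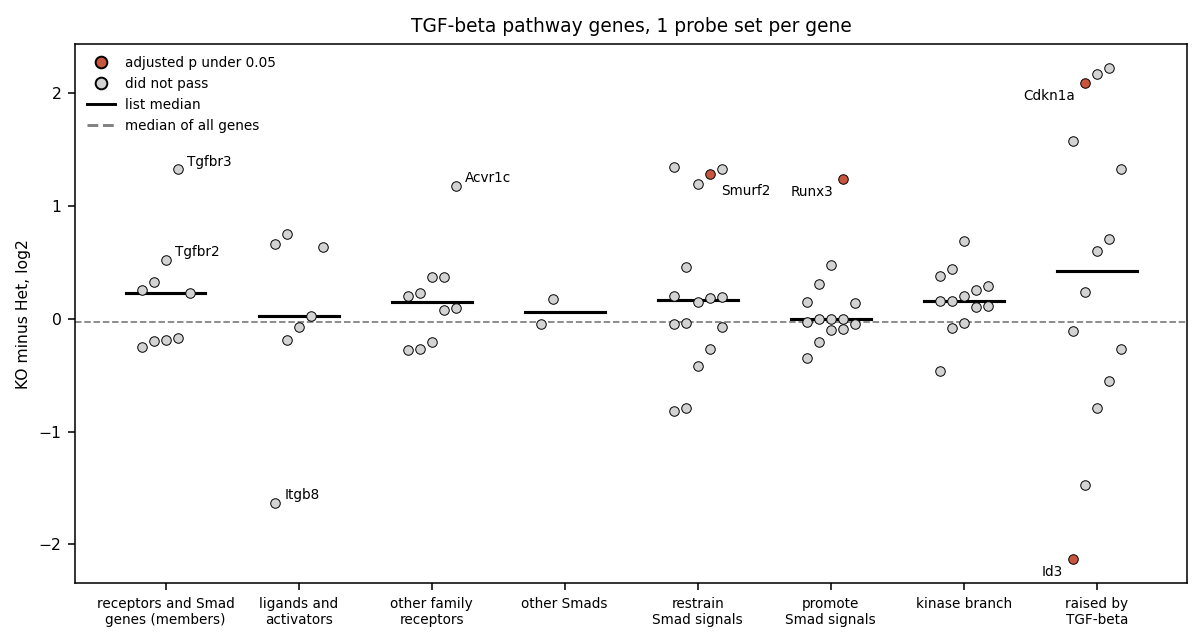
KO minus Het log2 difference (vertical axis) of each measured gene in the receptor and Smad group and in 7 other TGF-beta pathway lists, 1 point per gene, with each list's median as a black line and the median of all genes as a dashed line. Red points passed the test, and they are Smurf2, Runx3, Cdkn1a and Id3.

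Facts of the whole series touch these values as follows. Median intensities were 58.1 to 61.5 per array, and of 29507 probe sets limma called 525. Foxp3 and the 2 Dicer1 probe sets did not pass. Foxp3 read 9960, 8945 and 9769 (Het) against 5453, 9417 and 5420 (KO), at log2 -0.55 (limma, adjusted p = 0.285). KO B lay among the Het arrays there, and KO A and KO C lay below them. For 1 Dicer1 probe set every KO array (709 to 976) was below every Het array (1120 to 1345), at log2 -0.52 (adjusted p = 0.145). The other overlapped between groups, at log2 -0.03 (adjusted p = 0.89). The place of the Dicer1 probes with respect to the part that Cre removes is not known here, so these probe sets do not check the labels. All 5 measured T cell markers (Cd4, Cd3d, Cd3e, Cd3g and Cd2) and all 6 regulatory T cell markers were above the filter on the arrays. Among the latter Nrp1, a surface receptor of thymic regulatory T cells, fell in KO, with means of 6161 ± 447 against 12233 ± 163 for Het (SD, n = 3) and log2 -0.99 between them (limma, adjusted p = 0.0191). Ctla4 and Il2ra had every KO array above every Het array (log2 0.76 and 0.67, adjusted p = 0.0686 and 0.244). The 9 B cell markers measured summed to intensities of 1195 to 2903 in Het and 2052 to 5222 in KO, with Pax5 below the filter throughout. The CD8 markers Cd8a and Cd8b1 summed to 651 to 2257 in Het and 636 to 4415 in KO. For the 4 NK cell markers the sums were 137 to 630 and 151 to 1741, and for the 10 myeloid markers 465 to 766 and 677 to 2160. The B array was the highest of its group for all 4 of these cell types, while stromal and endothelial markers summed to 178 to 229 on all 6 arrays. For Tgfbr3 the B array was the lowest of the KO group and the middle one of the Het group. Without both B arrays Tgfbr3 gave log2 1.31, Tgfbr2 0.58, Smad4 -0.13 and Skil -0.14 on their brightest probe sets, and limma called 0 probe sets in all (5274 at an unadjusted p under 0.05). The ranges of Het and KO sums overlapped for all 4, with Het B the highest Het array in each. Single markers of these 4 cell types separated the groups. Those that were tested, Cd22 and Cd68, were higher in KO, and those lower in KO were too dim to be tested. The B cell marker Cd22 was at 534 to 840 in Het and 1063 to 2980 in KO (log2 1.37, adjusted p = 0.173), and the myeloid marker Cd68 at 28.4 to 64.0 and 84.1 to 231 (log2 1.91, adjusted p = 0.113). The B cell marker Cr2, above the filter on 1 array only, had every KO array (7.80 to 8.66) below every Het array (8.94 to 33.9). Lyz2 had the largest difference of the myeloid markers, at 50.6 to 381 in Het and 232 to 1408 in KO. The groups overlapped there (log2 2.09, limma, adjusted p = 0.318). The myeloid markers Csf1r and Fcgr1 also overlapped between groups, at log2 0.06 and -0.04. The part of these markers in the receptor values was not tested.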

How the data were processed

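RNA of 3 Het and 3 KO samples was measured on expression arrays. Each value is an intensity from the authors' GCRMA normalization, per the labels. Per the labels' protocols, RNA was extracted with TRIzol and labelled with MessageAmp II. GCRMA subtracts a background modelled from probe sequence, so dim probe sets are pushed toward a floor and their folds depend on that step. The range of 1.23 to 170023 showed a linear scale, and log2 was taken. Not given in the sources used here are the version and settings of GCRMA.

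The table holds 45101 probe sets. After removal of 64 controls and 1 incomplete row, 29507 reached a log2 value above 4 on 3 or more arrays and entered the test. Symbols are those of the platform annotation, where 34958 probe sets have 1 symbol, 932 several and 9211 none here. The comparison used limma 3.58.1 under R 4.3.3, with a linear model of group alone, moderated two-sided tests, Benjamini-Hochberg adjustment over all tested probe sets and a threshold of 0.05. Intervals are 95% intervals of limma's moderated statistic. The steps were tested on simulated data. For lists, the brightest tested probe set stood for a gene. Every probe set of each member is given, and from each other list up to 4 genes past the threshold, or the 2 of smallest p. Genes beyond that rule were picked with their values in view. They were Ep300, Tgfb1, Itgae, the dimmer Bmpr2 probe set and the genes under other observations. Among the markers they were Nrp1, Ctla4, Il2ra, Cd22, Cd68, Cr2, Lyz2, Csf1r and Fcgr1. Foxp3 and Dicer1 are given as genes of the mouse design. Members, lists and rules were chosen with earlier results of these data known. Alternatives tried were a replicate block, other filters, normalizations, variance models, array weights, a pseudocount of 16, averaging the probe sets of each gene, and leaving out arrays.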

Additional observations from a re-analysis of the deposited data

How the results depend on the processing

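With 3 arrays a group, calls depended on every array. Limma called 525 probe sets with all arrays and 0 to 176 without single arrays, 0 without both B arrays, 957 with array weights and 0 with the replicate block, where 5365 had an unadjusted p under 0.05. For the receptor and Smad probe sets the count of 0 became 1 under the stricter filter (Tgfbr3) and stayed 0 under the other alternatives. The count of 4 called among other pathway genes became 0 with the block and without both B arrays, 2 with no filter and 7 with array weights. It was 0 to 1 without single arrays, and the 1, without KO A, was Itgb8, which is not among the 4. The cause of these changes was not tested. Deviations from the group mean correlated at 0.28 for A, -0.17 for B and 0.01 for C between Het and KO arrays of the same letter. Between arrays of different letters the values ran from -0.45 to 0.37. With 3 arrays a group these correlations cannot settle whether the letters mark pairs, and the labels do not say. Signs changed under some alternative for 6 of the probe sets described. They were Smad7 1423389_at (-0.0264 under quantile normalization, -0.0644 to 0.16 without single arrays), Ski 1429192_at (0.0015 under median centring, -0.11 to 0.0638), Tgfbr1 1420894_at (-0.0578 to 0.77), Tgfbr3 1425620_at (-0.0187 to 0.37), Smad3 1450472_s_at (-0.0108 to 0.14) and Smad1 (-0.11 to 0.0222). Probe sets near the filter are limited by background.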

Other observations

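Several genes around the pathway had groups that did not overlap and yet did not pass the test, and they were picked after their values were seen. Such separation was common, with every KO array above every Het array for 11.3% of all probe sets tested and below for 14.9%. Pmepa1, a TGF-beta-induced membrane protein that binds Smads, had intensities of 1093, 1842 and 1698 (Het) against 2930, 4676 and 3945 (KO) on its brightest probe set. This is 1.33 ± 0.26 in log2 units (SE; limma, adjusted p = 0.0743), and its other probe sets gave 1.27 and 0.85. Ldlrad4, a gene of the same family, had the opposite sign on its 3 tested probe sets, at log2 -0.79, -0.88 and -1.26 (adjusted p = 0.124, 0.141 and 0.0588).

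Among genes that handle latent TGF-beta, Furin, the protease that cuts the precursor, had KO values of 2390, 2947 and 2438 against Het values of 1463, 1365 and 1790 (log2 0.75; limma, adjusted p = 0.0684). Nrros, which anchors latent TGF-beta on cells, had KO values of 2244, 2823 and 3018 against 1641, 1723 and 1793 (log2 0.64, adjusted p = 0.0781).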
